A study of Mus musculus with 96 samples.

Results

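The 10 genes described here encode acyl-CoA thioesterases, the enzymes that split an activated fatty acid or other acyl group from coenzyme A. They are Acot1, Acot2, Acot3, Acot4, Acot7, Acot8, Acot9, Acot11, Acot12 and Acot13, of 18193 genes that the array annotation names through a probe set with a single symbol. A probe set is a group of short probes on the array read out as 1 signal. The members carry 15 such probe sets, and another 2 that are annotated to several symbols were not used. The family was selected on earlier results of these data, in which Acot1 had 1 of the larger averaged diet differences. Diet differences of the members are therefore given as a description, with their SE and without p-values. Where such a difference is said to be called, the word only marks the values past the threshold of the fit over all probe sets, which is no evidence independent of the choice, and nothing is supported with it.

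Liver RNA was measured on 96 Affymetrix mouse genome arrays, 1 male mouse on each. Each of 6 strains gave 8 mice on a diet restricted by 25% in calories and 8 mice on a control diet. The inbred strains were C57BL6/J, 129S1/SvImJ, DBA/2J, C3H/HeJ and CBA/J, and B6C3F1/J was the cross of C57BL6/J with C3H/HeJ. All mice came at 6 weeks of age, were housed alone with 84 kcal per week of an AIN93M-based diet for 2 weeks, and entered their diet groups at 8 weeks. They were 22 weeks old when liver was collected, so the diets lasted 14 weeks. No group carries a transgene or a drug, and the labels name each array as a biological replicate. The comparisons ask how the liver differs between diets, whether that difference depends on the strain, and how strains differ on each diet.

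Fatty acids enter metabolism as acyl-CoA, made by acyl-CoA synthetases, and thioesterases run the opposite reaction, releasing free fatty acid and coenzyme A. Type I enzymes (Acot1 to Acot6) resemble one another closely and differ in where they act. Acot1 acts in the cytosol, Acot2 in mitochondria, and Acot3 and Acot4 in peroxisomes. Type II enzymes are unrelated in sequence to type I and share the hotdog fold. They include the cytosolic Acot7, the peroxisomal Acot8, the mitochondrial Acot9, Acot11 and Acot12, which also have a lipid-binding START domain, and Acot13. In rodent liver several type I genes are known targets of PPARα, the nuclear receptor that is active in fasting, when fatty acids are burned.

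All 10 symbols matched the RefSeq gene table. In that table Acot2, Acot1, Acot4, Acot3, Acot5 and Acot6 follow one another on chromosome 12 in this order, with no other protein-coding gene between them. The 4 members of the run are given by the 250 bases upstream of their annotated start, from RefSeq (GRCm38.p6, plus strand, 5′ to 3′), because they are neighbours whose diet differences are set side by side further on. Capitals mark matches on either strand to the nuclear receptor half-site AGGTCA, to TATAAA or to CCAAT. Acot3 has a pair of entries and the first is printed. The windows are chr12:83987611-83987860 for Acot2, chr12:84009252-84009501 for Acot1, chr12:84038129-84038378 for Acot4 and chr12:84051894-84052143 for Acot3.
Acot2: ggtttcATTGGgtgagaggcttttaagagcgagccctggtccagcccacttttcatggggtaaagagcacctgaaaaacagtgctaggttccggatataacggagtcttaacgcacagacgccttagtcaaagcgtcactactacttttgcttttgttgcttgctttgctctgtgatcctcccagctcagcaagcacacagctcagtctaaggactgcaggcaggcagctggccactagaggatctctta
Acot1: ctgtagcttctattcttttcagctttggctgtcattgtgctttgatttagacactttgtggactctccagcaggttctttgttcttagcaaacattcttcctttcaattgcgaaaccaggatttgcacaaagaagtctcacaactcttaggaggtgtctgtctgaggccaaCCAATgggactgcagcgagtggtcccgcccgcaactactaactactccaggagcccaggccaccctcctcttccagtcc
Acot4: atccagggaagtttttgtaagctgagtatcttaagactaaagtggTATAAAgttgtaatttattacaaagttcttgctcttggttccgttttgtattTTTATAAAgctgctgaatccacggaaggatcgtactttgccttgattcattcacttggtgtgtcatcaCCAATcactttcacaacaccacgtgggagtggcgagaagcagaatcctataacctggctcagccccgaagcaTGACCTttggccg
Acot3: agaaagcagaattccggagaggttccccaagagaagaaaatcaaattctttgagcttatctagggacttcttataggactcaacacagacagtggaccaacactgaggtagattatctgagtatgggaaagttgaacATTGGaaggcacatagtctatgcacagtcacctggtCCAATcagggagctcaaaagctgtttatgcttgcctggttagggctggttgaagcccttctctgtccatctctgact

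Each of these 4 windows holds CCAAT, as did 33.8% of all 32851 windows of this length in the table. Only the Acot4 window holds AGGTCA, 13 to 8 bases before the start, and 14% of all windows hold it. TATAAA was found in the Acot4 window too, with 2 of its 3 matches overlapping, and in 12.4% of all windows. The repeat AGGTCANAGGTCA, the form known as DR1 to which PPARα binds with its partner, was found in 0 of the 11 windows of the 9 members with an entry, and in 0.0335% of all windows. Among those 9 members, 7 held CCAAT and 2 held AGGTCA, namely Acot4 and Acot12. A match is a run of letters and not a bound site, and a missing match says only that these letters are not in this window.

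Signals were compared as log2 values, in arbitrary units, so that a step of 1 is a doubling. A probe set was tested when it reached the array median in at least 8 arrays, which 14 of the 15 member probe sets did. The exception was 1433064_at of Acot12, which reached it in 3 arrays. It is left out of every further count. Tests used limma over all 32999 probe sets that passed, with p-values adjusted over all of them (Benjamini-Hochberg), and a call means an adjusted p under 0.05. The signal of one probe set cannot be set against that of another, so levels are compared between groups only. Type I transcripts are alike enough that probes may read more than 1 of them, and the suffix of the Acot3 probe set, 1422925_s_at, marks probes shared by several transcripts.

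The arrays were alike in scale with a few exceptions. The median log2 signal lay between 6.21 and 7.50 on 94 arrays. It was 8.295 on DBA/2J restricted replicate 6 and 8.655 on B6C3F1/J control replicate 2. In CBA/J it averaged 7.29 ± 0.20 in restricted mice and 6.52 ± 0.06 in control mice (SD, n = 8 each; exact two-sided permutation p = 0.000155, the smallest this design allows; adjusted p = 0.0014 over 18 comparisons). The Gapdh difference between 3′ and 5′ control probe sets, a measure of RNA integrity, was -0.03 ± 0.16 in restricted CBA/J and -0.40 ± 0.07 in control CBA/J (same test, adjusted p = 0.0014). In C57BL6/J the Actb difference was 1.07 ± 0.14 in restricted and 0.81 ± 0.11 in control mice (exact permutation, adjusted p = 0.00746). Of the listed hepatocyte markers 4 of 5 were measured, and all 4 were called higher under restriction, with a median log2 difference of 0.24. Their summed signal ran from 148400 to 1402000 on restricted and from 168200 to 918200 on control arrays. Of 5 endothelial markers 3 were called higher, with sums of 5263 to 14420 on restricted and 3781 to 9668 on control arrays. In the other 6 marker lists at most 1 gene was called in either direction, and no marker of any list stayed below the filter. The part of these measures in the results was not tested, and in whole liver fewer cells of a type and less RNA per cell cannot be told apart.

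Acot1, the cytosolic long-chain enzyme (1449065_at), was lower under restriction in the mean of every strain. In 129S1/SvImJ the 8 restricted mice ran from 6.23 through a median of 8.83 to 10.84, against 12.33, 12.72 and 13.43 in the 8 control mice. In C57BL6/J they ran from 8.46 through 10.39 to 11.59 when restricted, against 11.78, 12.39 and 12.69 on control diet. In B6C3F1/J they ran from 8.56 through 9.02 to 10.37 when restricted, against 10.50, 11.04 and 11.63 on control diet. In these 3 strains every restricted mouse lay below every control mouse.

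In the other strains the diets overlapped for Acot1. C3H/HeJ ran from 7.90 through 9.0 to 10.39 when restricted, against 8.51, 10.71 and 11.04 on control diet, and 2 restricted mice lay below all controls. CBA/J ran from 6.56 through 8.43 to 9.70 when restricted, against 8.48, 10.12 and 10.91 on control diet, with 4 restricted mice below all controls. DBA/2J ran from 8.07 through 9.84 to 10.87 when restricted, against 9.08, 10.90 and 12.76 on control diet, with 3 below all controls. The restricted mice of 129S1/SvImJ were also the most spread of the 12 groups (SD 1.60 against 0.37 in their controls).

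**Figure D1:**
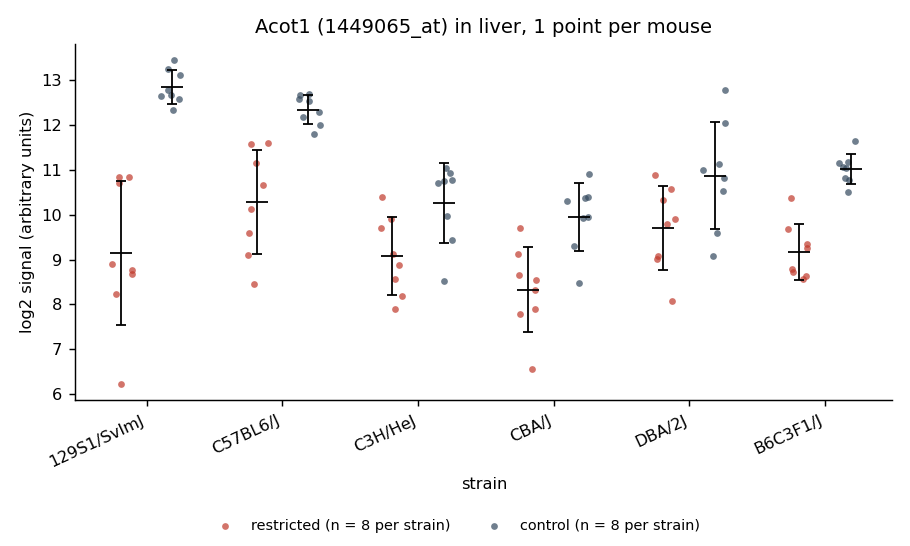
Log2 signal of Acot1 (1449065_at, arbitrary units) in each of 96 livers by strain, restricted left of control; bars give the mean ± SD of 8 mice. Restricted means lie between 8.33 and 10.28 and control means between 9.95 and 12.84, and the 2 diets do not overlap in 129S1/SvImJ, C57BL6/J and B6C3F1/J.

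As log2 differences, restricted minus control, Acot1 stood at -3.70 in 129S1/SvImJ, a 13.0-fold difference, and at -2.06 in C57BL6/J. It stood at -1.85 in B6C3F1/J, -1.63 in CBA/J, -1.18 in C3H/HeJ and -1.17 in DBA/2J, each with an SE of 0.45. The mean over strains was -1.93 ± 0.18 (SE), with means of 9.28 in restricted and 11.21 in control mice. The size of the difference varied with the strain (limma F test of the interaction, adjusted p = 0.0138). Without CBA/J that test missed the threshold (limma, adjusted p = 0.0763).

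Acot2, the mitochondrial long-chain enzyme, has a bright probe set (1439478_at) and a dim one (1422996_at). On the bright one, restricted 129S1/SvImJ mice ran from 9.52 through 10.03 to 10.27, against 10.24, 11.04 and 11.55 in controls, with 7 of 8 below all controls. Restricted C57BL6/J mice ran from 8.26 through 9.63 to 10.21, against 10.26, 10.52 and 10.67 in controls, with no overlap. The differences there were -1.14 and -1.03, each with an SE of 0.21. They were -0.45 in C3H/HeJ, -0.32 in DBA/2J, -0.03 in B6C3F1/J and 0.01 in CBA/J. Thus the signal was lower by about a factor of 2 in restricted 129S1/SvImJ (2.20-fold) and C57BL6/J (2.04-fold), while the means of the diets nearly coincided in B6C3F1/J and CBA/J.

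The dim Acot2 probe set was lowest relative to control in C57BL6/J, and not in 129S1/SvImJ as the bright one was, at -1.32 ± 0.37, where the diets did not overlap, and was 0.57 ± 0.37 in B6C3F1/J. Its C57BL6/J call was lost when any of 4 arrays was left out (control replicate 2 and restricted replicates 1, 2 and 3). The diet difference varied with strain on both probe sets (limma interaction F test, adjusted p = 0.00255 for 1439478_at and 0.0351 for 1422996_at). Neither passed without CBA/J (limma, adjusted p = 0.0595 and 0.0793). For 1422996_at it was also missed without the 2 arrays of high median (0.055) and without any of 7 single arrays (up to 0.0585): C57BL6/J control replicate 2, C57BL6/J restricted replicates 1, 2 and 3, B6C3F1/J control replicates 1 and 2 and B6C3F1/J restricted replicate 5.

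Acot4, which in mouse peroxisomes releases succinate and other short dicarboxylic acids from coenzyme A, was lower in the restricted mean of all 6 strains on both of its probe sets. On 1422076_at, restricted CBA/J mice ran from 7.52 through 8.27 to 9.32, against 8.95, 9.43 and 10.37 in controls. Restricted DBA/2J mice ran from 6.15 through 8.87 to 9.85, against 9.07, 9.66 and 10.58 in controls. In each of these strains 6 restricted mice lay below all controls, and the differences were -1.24 ± 0.28 and -1.05 ± 0.28 (SE). The DBA/2J call was lost without restricted replicate 6, an array of high median, and the difference was then -0.69. Once the array median was a covariate the CBA/J difference was -0.63 and no longer called. In CBA/J the array medians of the diets do not overlap, so values of that strain with this covariate cannot separate array scale from diet.

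The remaining Acot4 differences on 1422076_at ran from -0.86 in 129S1/SvImJ to -0.35 in C3H/HeJ, none of them called. On 1422077_at the differences ran from -0.93 in CBA/J to -0.08 in DBA/2J. The CBA/J call on it rested on restricted replicate 3, at 4.55 where the next mouse was at 7.20, and without that array the difference was -0.48 and not called. No dependence on strain was called for Acot4 (limma interaction F test, adjusted p = 0.339 and 0.455). Averaged over strains the differences were -0.78 ± 0.11 on 1422076_at and -0.40 ± 0.11 on 1422077_at (SE).

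Acot3, a peroxisomal long-chain enzyme of the same run, was most different by diet in CBA/J. There the restricted mice ran from 9.12 through 10.34 to 11.11, against 11.26, 11.62 and 12.52 in controls. The diets did not overlap and the difference was -1.44 ± 0.35 (SE), or 2.71-fold. The array medians of the diets do not overlap in CBA/J either, so array scale and diet cannot be told apart there. In the other strains the Acot3 difference ran from -0.81 in DBA/2J to 0.09 in 129S1/SvImJ, none of them called. The average of -0.49 ± 0.14 was no longer called without CBA/J, at -0.29. The interaction test did not pass (limma, adjusted p = 0.119).

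Acot8, a peroxisomal enzyme with a broad range of substrates, was lower in the restricted mean of all 6 strains. Restricted 129S1/SvImJ mice ran from 10.07 through 10.26 to 10.75, against 10.98, 11.34 and 11.80 in controls, with no overlap. Restricted DBA/2J mice ran from 8.79 through 10.43 to 10.89, against 10.69, 11.07 and 11.39 in controls, with 7 of 8 below all controls. The differences were -1.10 and -0.82, while in C3H/HeJ and B6C3F1/J they were -0.11 and -0.15, each with an SE of 0.16. The diet difference varied with strain (limma interaction F test, adjusted p = 0.00161). It did so without CBA/J (limma, 0.012) and without the 2 arrays of high median (limma, 6.14e-05), and in every fit that left out 1 array.

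In CBA/J the Acot8 difference of -0.43 was called, but with the array median as a covariate it was -0.07. That call was also lost without any of 5 arrays, namely CBA/J control replicates 2 and 8 and restricted replicates 1, 2 and 8. In C57BL6/J, where 7 of 8 restricted mice lay below all controls, the difference of -0.43 was not called. The average over strains was -0.51 ± 0.07 (SE).

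Acot7, a cytosolic enzyme best known from brain, was higher in the restricted mean of 5 strains, the exception being DBA/2J at -0.10. Restricted DBA/2J mice were widely spread (SD 1.01 against 0.27 in controls), with 3 below and 2 above all controls. No dependence on strain was called (limma interaction F test, adjusted p = 0.183). Restricted 129S1/SvImJ mice ran from 9.65 through 10.19 to 10.52, against 8.34, 9.37 and 9.71 in controls, and 7 of 8 lay above all controls. The difference there was 0.82 ± 0.21 (SE), 1.77-fold, and it was not called without control replicate 8, where it was 0.69. Restricted B6C3F1/J mice ran from 10.99 through 11.08 to 11.41, against 9.37, 10.64 and 11.01 in controls, a difference of 0.64 that was not called. Once the array median was a covariate the CBA/J difference was 0.97 and called, against 0.43 and not called without it.

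Acot13, a small hotdog-fold enzyme that binds the phosphatidylcholine transfer protein Pctp, was higher in the restricted mean of all 6 strains by 0.07 to 0.44, with no strain called. Its average of 0.24 ± 0.08 (SE) was no longer called without CBA/J, at 0.21, or after centring each array on its 75th percentile, at 0.22. In CBA/J the difference was 0.97 and called once the array median was a covariate, against 0.36 and not called without it. Acot9, of mitochondria, had differences from -0.07 to 0.26 and an average of 0.09 ± 0.08.

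Acot12, which hydrolyses acetyl-CoA in the cytosol of liver cells, differed little on average, by -0.18 ± 0.07 on 1449457_at and -0.12 ± 0.06 on 1419395_at (SE). The second probe set differed in CBA/J, where restricted mice ran from 10.41 through 10.64 to 11.53, against 11.23, 11.42 and 11.64 in controls. Of the restricted CBA/J mice 7 of 8 lay below all controls and the difference was -0.65 ± 0.14. The first probe set stood at 0.05 in the same mice, so the pair disagreed there. The interaction was called for 1419395_at (limma, adjusted p = 0.0164) but missed without CBA/J (0.824), with a covariate for the array median (0.28) and after quantile normalization (0.114). For 1449457_at it was not called (limma, 0.283) except with that covariate (0.0455) and with array weights (0.00874). Without the 2 arrays of high median both averages were called, at -0.16 and -0.15.

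Acot11, a long-chain enzyme first known from brown fat, had no called diet difference. On 1425667_at the 129S1/SvImJ difference was 1.52 ± 0.50 (SE), with 5 of 8 restricted mice above all controls, and it was called when 1 of 4 arrays was left out (129S1/SvImJ control replicates 5, 6 and 7 and restricted replicate 2). The averages were 0.28 ± 0.24 on 1429267_at and 0.34 ± 0.21 on 1425667_at. Group means on 1425667_at lay from 3.62 to 8.14 in restricted and from 3.58 to 6.62 in control mice. The mean array median was 6.706, so the size of differences among its dimmer groups is uncertain.

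In the average over strains 6 of the 14 member probe sets were called lower, where 11.7% of all probe sets were, and 2 were called higher, where 11.0% were. The median difference of the members was -0.25, against 0.05 over all probe sets. The 6 were those of Acot1, Acot3, Acot4 (both), Acot8 and the bright one of Acot2, and the 2 were those of Acot7 and Acot13. Without CBA/J 6 in all were called, and without the 2 arrays of high median 10. A minimum of 1.5-fold left 2, namely Acot1 and Acot4 (1422076_at). The shares of all probe sets called under these other settings are not given here, so nothing about the members is read from the changes.

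Within strains, 4 of the 14 were called in 129S1/SvImJ, where 3.32% of all probe sets were called in either direction. The counts were 3 in C57BL6/J (background 2.51%), 0 in C3H/HeJ (1.16%), 6 in CBA/J (35.6%), 2 in DBA/2J (5.38%) and 1 in B6C3F1/J (3.29%). Of the 16 calls 15 were lower and the Acot7 call in 129S1/SvImJ was higher. In C3H/HeJ 4 member probe sets had an unadjusted p under 0.05 in limma. Nothing is read from these counts, since the family was chosen on the diet contrast.

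**Figure D2:**
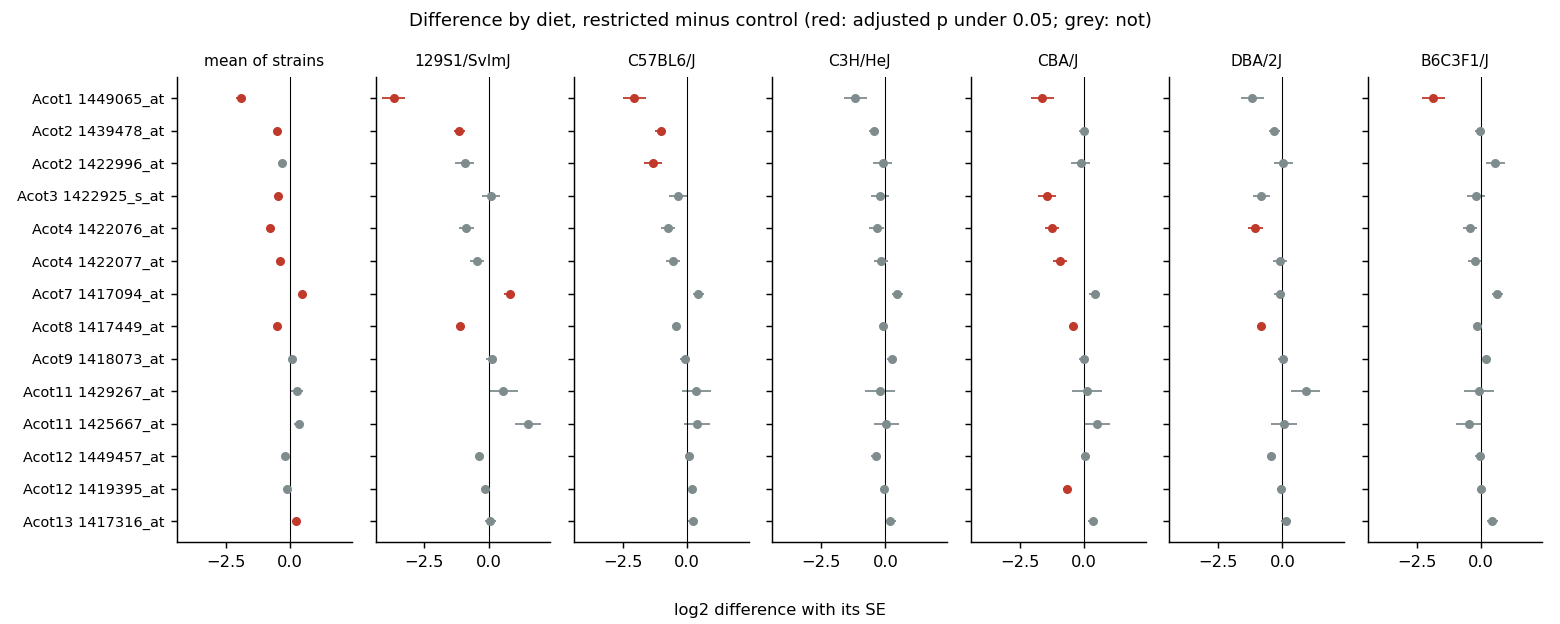
Log2 difference, restricted minus control, of the 14 member probe sets (rows) over the mean of strains and in each of 6 strains (panels); points give the difference, bars its SE, red points a call. The Acot1 points lie left of 0 in every panel, from -3.70 to -1.17, and the Acot7 points right of 0 in all strains but DBA/2J.

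The dependence of the diet difference on strain was not itself used to choose the family. It does rest on the same strain values as the averaged difference, so its count is given as a description. It was called for 5 of 14 member probe sets, from 4 genes, against 18.7% of all probe sets. These were Acot1, both of Acot2, Acot8 and the second of Acot12. Without CBA/J 1 of them passed, that of Acot8. The share of all probe sets that passed without CBA/J is not given here, so the lower count is not read as particular to the members. In 129S1/SvImJ the differences of Acot1, Acot2 (1439478_at) and Acot8 were -3.70, -1.14 and -1.10, the largest of any strain for each, and in C3H/HeJ they were -1.18, -0.45 and -0.11.

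Strain levels were set apart from diet by testing the 6 strains within each diet. Strains differed for 12 of 14 member probe sets on the restricted diet, against 60.4% of all, and for 12 of 14 on the control diet, against 35.8% of all. Over the 15 pairs of strains and 14 probe sets, 77 of 210 pairs were called on the restricted diet (20.2% of all) and 62 of 210 on the control diet (10% of all). Acot13 was not called on either diet (limma F test, adjusted p = 0.128 restricted and 0.714 control), nor in any pair. Without the 2 arrays of high median it passed on both (0.000781 restricted, 0.0199 control).

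Acot11 had the widest strain range of the members on both probe sets. On 1429267_at restricted 129S1/SvImJ mice ran from 8.10 through 8.63 to 8.83, and restricted C3H/HeJ mice from 2.38 through 4.46 to 6.77. Control 129S1/SvImJ mice ran from 6.77 through 8.18 to 8.84, and control C3H/HeJ mice from 2.34 through 5.13 to 7.15. The distance between these strain means was 3.89 on the restricted diet and 3.10 on the control diet (limma F test over strains, adjusted p = 7.75e-07 and 9.78e-05). C3H/HeJ was thus the lowest strain and 129S1/SvImJ the highest on both diets, without overlap among restricted mice and with overlap among controls.

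The second Acot11 probe set gave the same ends of the order, 4.51 apart on the restricted diet and 3.03 on the control diet (limma, adjusted p = 5.19e-13 and 5.86e-09). Restricted means on it were 8.14 in 129S1/SvImJ, 6.68 in C57BL6/J, 6.08 in B6C3F1/J, 4.94 in CBA/J, 4.33 in DBA/2J and 3.62 in C3H/HeJ. Between neighbours in that order only the step below 129S1/SvImJ was called (limma, adjusted p = 0.0373). Control means on it were 6.62 in 129S1/SvImJ, 6.54 in B6C3F1/J, 6.30 in C57BL6/J, 4.43 in CBA/J, 4.26 in DBA/2J and 3.58 in C3H/HeJ. Here only the step between C57BL6/J and CBA/J was called (limma, 0.00599), though mice of both sides overlapped, since C57BL6/J control mice went down to 4.64 and CBA/J control mice up to 6.14. On 1429267_at no control step between neighbours was called, and on the restricted diet only that between CBA/J and C3H/HeJ (limma, adjusted p = 0.0314). In the mice themselves the 2 Acot11 probe sets hardly moved together, with r = 0.05 within groups (96 arrays).

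Acot3 was highest in B6C3F1/J on both diets. Restricted means were 12.97 in B6C3F1/J, 12.25 in C57BL6/J, 11.98 in C3H/HeJ, 11.73 in 129S1/SvImJ, 10.48 in DBA/2J and 10.25 in CBA/J. The step between 129S1/SvImJ and DBA/2J was the only one called between neighbours (limma, adjusted p = 0.00753). Control means ran from 13.15 in B6C3F1/J to 11.30 in DBA/2J, with no step between neighbours called. The strain test passed on both diets (limma, adjusted p = 5.65e-11 restricted and 4.25e-05 control), and the range was 2.72 on the restricted and 1.85 on the control diet.

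Acot7 was highest in C3H/HeJ and its cross. Restricted means were 11.16 in B6C3F1/J, 11.11 in C3H/HeJ, 10.49 in CBA/J, 10.23 in C57BL6/J, 10.14 in 129S1/SvImJ and 9.46 in DBA/2J. Called steps lay between C3H/HeJ and CBA/J (limma, adjusted p = 0.0154) and between 129S1/SvImJ and DBA/2J (0.0187). Control means were 10.65 in C3H/HeJ, 10.52 in B6C3F1/J, 10.06 in CBA/J, 9.79 in C57BL6/J, 9.56 in DBA/2J and 9.31 in 129S1/SvImJ, with no step between neighbours called. The strain test passed on both diets (limma, adjusted p = 2.34e-11 restricted and 7.03e-08 control), and 11 of 15 pairs were called on the restricted and 7 of 15 on the control diet.

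**Figure D3:**
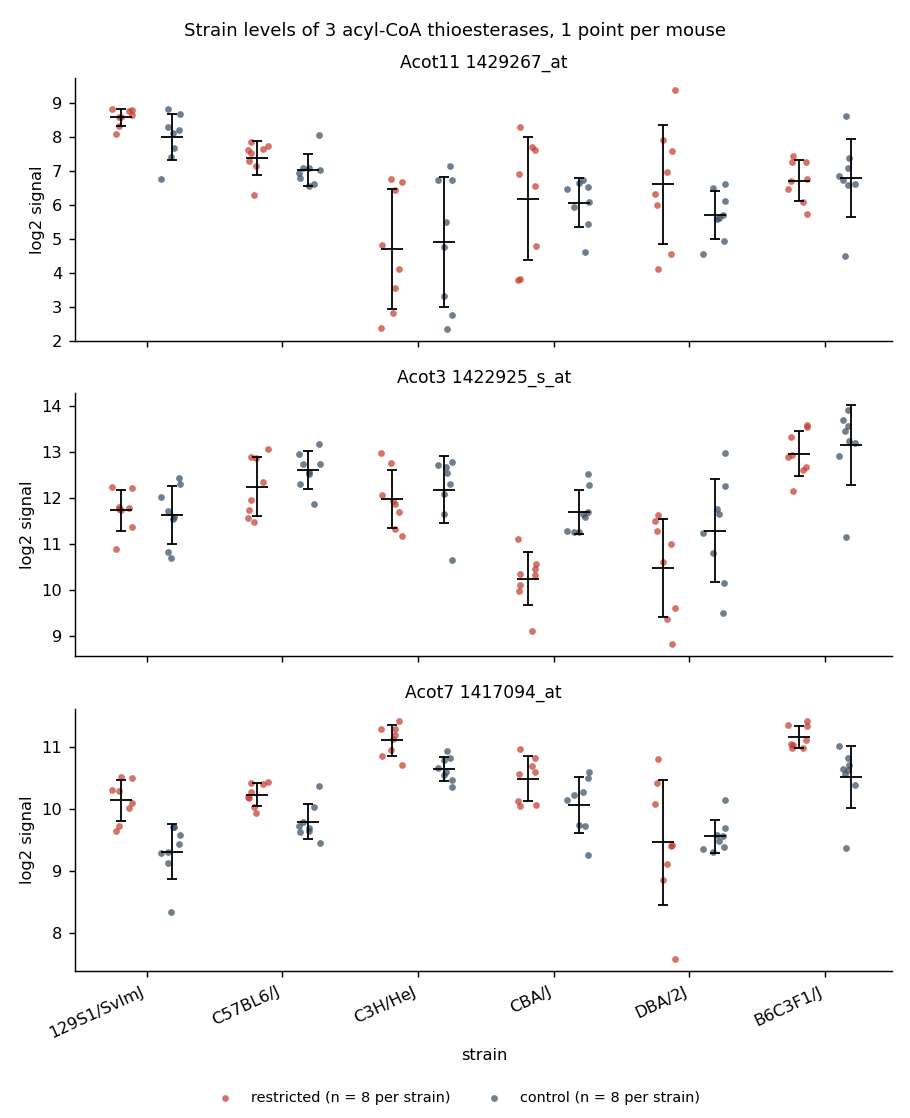
Log2 signal of Acot11 (1429267_at), Acot3 (1422925_s_at) and Acot7 (1417094_at) in each of 96 livers by strain, restricted left of control; bars give the mean ± SD of 8 mice. C3H/HeJ has the lowest Acot11 means (4.69 restricted, 4.91 control), B6C3F1/J the highest Acot3 means (12.97 and 13.15), and DBA/2J the lowest restricted Acot7 mean (9.46).

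For Acot1 the strains lay closer together on the restricted diet. Restricted means were 10.28 in C57BL6/J, 9.70 in DBA/2J, 9.17 in B6C3F1/J, 9.15 in 129S1/SvImJ, 9.08 in C3H/HeJ and 8.33 in CBA/J, with no step between neighbours called (limma, adjusted p from 0.175 to 0.988). Control means were 12.84 in 129S1/SvImJ, 12.34 in C57BL6/J, 11.01 in B6C3F1/J, 10.87 in DBA/2J, 10.26 in C3H/HeJ and 9.95 in CBA/J, with a called step between C57BL6/J and B6C3F1/J (limma, 0.039). The range was 1.95 on the restricted and 2.89 on the control diet (limma F test over strains, adjusted p = 0.00452 and 6.53e-08), with 2 of 15 and 8 of 15 pairs called. 129S1/SvImJ, highest of all on the control diet, stood below 3 other strains on the restricted diet. Without CBA/J the restricted strain test missed the threshold (limma, 0.0902).

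Acot2 (1439478_at) ranged over 1.12 on the restricted and 1.37 on the control diet (limma, adjusted p = 7.06e-06 and 3.48e-08). B6C3F1/J was highest when restricted, at 10.59 ± 0.29, and 129S1/SvImJ on control diet, at 11.07 ± 0.38 (SD). Acot4 (1422076_at) ranged over 1.84 and 1.32 (limma, adjusted p = 1.49e-09 restricted and 0.00027 control), highest in C57BL6/J and lowest in CBA/J on both. Acot8 ranged over 0.51 and 0.81 (limma, 0.00921 restricted and 0.000337 control), with CBA/J lowest on both. With the array median as a covariate the restricted test of Acot8 missed the threshold (0.556), as it did after quantile normalization (0.189) and without CBA/J (0.0531).

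Acot12 (1449457_at) ranged over 0.75 on the restricted diet (limma, adjusted p = 0.00734) and 0.42 on the control diet (limma, 0.167), and 1419395_at over 0.94 (1e-06) and 0.42 (0.049). The control call of 1419395_at was lost in 55 of the 96 fits that left out 1 array, and that of Acot4 1422077_at (limma, 0.0421) in 21. The restricted test of Acot12 1449457_at missed the threshold without CBA/J (0.198) and after centring on the 75th percentile (0.108). The control test of 1419395_at also missed it without CBA/J (0.059), with only the control groups fitted (0.0606), with no filter (0.0663), after quantile normalization (0.0594) and after that centring (0.132). For Acot4 1422077_at the control test was missed after quantile normalization (0.555), after that centring (0.163), with no filter (0.0532) and with a plain variance model (0.0528), and the restricted test without CBA/J (0.0629). Acot9 passed on the control diet (limma, 0.0135) and not on the restricted diet (limma, 0.104).

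B6C3F1/J was set against the mean of C57BL6/J and C3H/HeJ. On the restricted diet Acot2 lay above the parental mean, by 1.12 ± 0.18 on 1439478_at (limma, adjusted p = 9.95e-06) and by 0.94 ± 0.32 on 1422996_at (limma, 0.0494). The 8 restricted B6C3F1/J mice ran from 10.23 to 10.96 on the bright probe set, above all 8 restricted C57BL6/J (8.26 to 10.21) and all 8 restricted C3H/HeJ mice (8.94 to 9.74). These 2 of 14 stand beside 7.52% of all probe sets called. The second was lost in 60 of the 96 fits that left out 1 array, after quantile normalization (0.234), after centring on the 75th percentile (0.0534) and with no filter (0.0656).

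On the control diet Acot11 (1425667_at) lay 1.60 ± 0.44 above the parental mean (limma, adjusted p = 0.0125), 1 of 14 beside 7.29% of all probe sets. It was not called without B6C3F1/J control replicate 7 (0.0579), nor with the array median as a covariate (0.0762), after quantile normalization (0.0959) or with array weights (0.0633). Over both diets 3 comparisons were called as reported, and 8 without the 2 arrays of high median. The 5 added were Acot3 (0.86 restricted, 1.04 control), Acot13 (0.37 restricted, 0.45 control) and Acot7 (0.49 restricted), each above the parental mean. The share of all probe sets called without those 2 arrays is not given here. The diet difference of B6C3F1/J differed from that of its parents for 0 member probe sets in limma, with 2 at an unadjusted p under 0.05, and for 0 of all 32999 (0%).

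Whether members moved together from mouse to mouse was described by the correlation of their values within the 12 groups, with the brightest probe set of each gene, over 96 arrays that each carry all probe sets. All 6 pairs among the chromosome 12 members were above 0, with r from 0.27 (Acot2 and Acot4) to 0.66 (Acot1 and Acot2) and a median of 0.53. The other 39 pairs of member genes ran from -0.29 to 0.72 with a median of 0.10, and 20 were above 0. Without the 2 arrays of high median the chromosome 12 pairs ran from 0.39 to 0.66 with a median of 0.54. The highest other pair, Acot8 with Acot12, stood at 0.72 over all arrays and at 0.45 over the remaining 94, and Acot8 with Acot13 at 0.61 and 0.31. Over 96 arrays the dimmer probe sets of Acot2 and Acot4 gave lower and higher values with the other chromosome 12 members. These ran from 0.10 (1422996_at of Acot2 with 1422077_at of Acot4) to 0.52 (Acot3 with 1422077_at). The 2 probe sets of the same gene stood at 0.32 for Acot2 and at 0.12 for Acot4. Type I probes may share targets, and the part of that in these values was not tested.

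**Figure D4:**
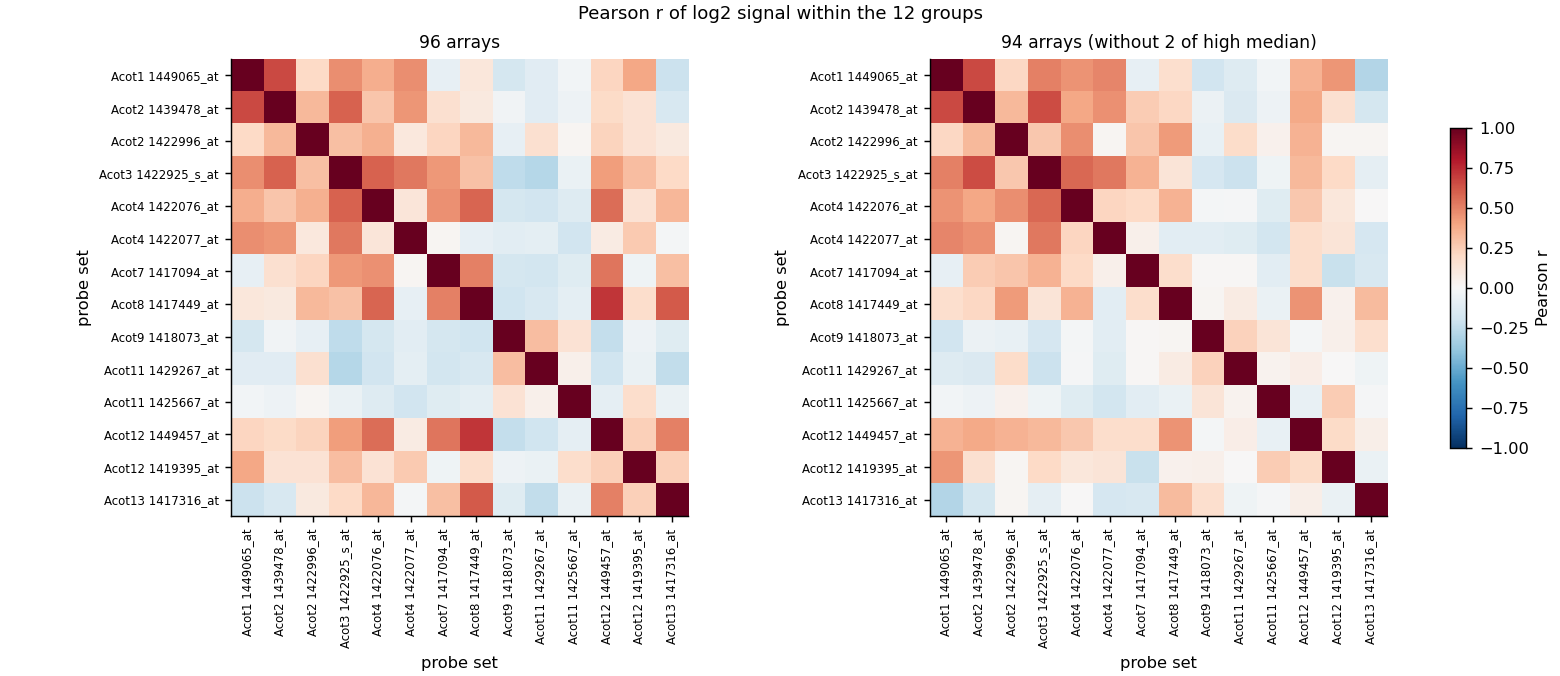
Pearson correlation of log2 signal within the 12 groups between the 14 member probe sets (rows and columns), over 96 arrays on the left and over 94 arrays, without the 2 of high median, on the right; red is above 0 and blue below. On the brightest probe set of each gene, pairs of Acot1 to Acot4 lie between 0.27 and 0.66 on the left and between 0.39 and 0.66 on the right, and Acot8 with Acot12 stands at 0.72 on the left and 0.45 on the right.

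Several members were also correlated with the scale of the array. Within groups the correlation with the array median was -0.56 for Acot13, -0.48 for Acot7, -0.45 for Acot8, -0.43 for Acot12 (1449457_at) and -0.41 for Acot4 (1422076_at), while it was 0.06 for Acot1 and 0.15 for Acot2 (1439478_at), over 96 arrays. The 96 include the 2 arrays of high median. Each probe set named here at -0.41 or below was the lowest of its group on at least 1 of those 2. How far these correlations rest on those arrays was not tested. The part of array scale in the diet differences was not tested beyond the covariate values given above. In CBA/J the array medians of the 2 diets did not overlap, at 6.99 to 7.50 restricted and 6.42 to 6.63 control. The covariate values of CBA/J therefore cannot tell array scale from diet.

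Other genes were ranked by the correlation of their 12 group means with those of each member, among 11110 genes whose group means spanned at least 1 log2 unit. The 10 closest to Acot1 were Csad (r = 0.96), Crot (0.95), Dnase2a (0.93), Cpox (0.90), Ei24 (0.90), Cmbl (0.89), Crebzf (0.89), Ccni (0.89), S100a10 (0.88) and Dusp28 (0.88). Within groups these ran from -0.22 for S100a10 to 0.45 for Cpox, with 0.31 for Csad, 0.28 for Crot and 0.26 for Dnase2a. The 10 genes were ranked on group means, so lower values from mouse to mouse are partly given by that choice. The averaged diet differences of the 10 lay between -1.90 (Csad) and -0.32 (Dusp28).

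The closest genes to the other members were Crat, Cpt2 and Mogat1 for Acot2 (r from 0.84 to 0.86), and Abcd2, Hacd2 and Gsn for Acot3 (0.88 to 0.93). They were Nat8, Mmd and D5Ertd579e for Acot4 (0.92 to 0.93), Ehhadh, Crot and Gm4285 for Acot8 (0.89 to 0.92), and Ivd, Mmab and Sap130 for Acot7 (0.93 to 0.94). For Acot13 they were Mvk, Mvd and Bnip5 (0.88 to 0.92), the first of them enzymes of sterol synthesis. For Acot12 they were Vnn3, Mus81 and Zfp324 (0.85 to 0.88), for Acot9 Fgfrl1, Rab7b and Exosc9 (0.85 to 0.88), and for Acot11 St3gal5, Zfp661 and Cyp4f13 (0.90 to 0.92). Within groups Vnn3 with Acot12 (0.75), Ivd with Acot7 (0.67), Mmab with Acot7 (0.64) and Ehhadh with Acot8 (0.62) were the highest of all these pairs. These values rest on 12 points that share their arrays and are a description.

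Lists of related genes were read from 1 probe set a gene, over 14816 genes of which 15.2% were called higher and 12.4% lower in the averaged diet difference, with a median of 0.07. Among 6 tested relatives of the family, 2 were called higher and 3 lower, with a median of -0.08. Pctp, the lipid transfer protein that binds Acot13, was lower by diet (-0.99 ± 0.08, SE), as were Baat, which joins bile acids to amino acids (-0.62 ± 0.08), and Them4, a hotdog-fold thioesterase (-0.31 ± 0.08). Higher were Them5, a mitochondrial relative (0.93 ± 0.28), and Acot6, of the chromosome 12 run (0.80 ± 0.19). Both Them5 means lay below the mean array median of 6.706, at 5.66 restricted and 4.73 control. The Acot6 control mean of 6.62 did so too, against 7.41 restricted, so the size of both differences is uncertain. Acot6 was higher in the mean of all 6 strains, by 0.27 to 1.24, with none called, so the 4 members and Acot6 on the run did not all differ in 1 direction. Stard7, a lipid carrier, stood at 0.15 ± 0.07. Acot5 and Acot10 were not analysed here.

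Of 12 acyl-CoA synthetases tested, which make the substrates of the thioesterases, 4 were called higher and 3 lower, with a median of 0.13. The largest differences were in Acss2, the cytosolic acetyl-CoA synthetase (1.97 ± 0.15), and in the long-chain synthetases Acsl5 (0.81 ± 0.07) and Acsl3 (0.75 ± 0.09). Of 11 genes of coenzyme A turnover 2 were called in each direction, with a median of -0.07. Among them Vnn1, a pantetheinase that breaks down the coenzyme A precursor pantetheine, was lower by 3.71-fold (-1.89 ± 0.11) and was called in every strain. Nudt19, a peroxisomal coenzyme A diphosphatase (0.31 ± 0.06), and Pank4, a relative of pantothenate kinases (0.23 ± 0.09), were the 2 called higher.

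Of 25 known PPARα targets and partners tested, 15 were called lower and 1 higher, with a median of -0.43. The largest differences were in Cyp4a14, a fatty acid omega-hydroxylase (-1.52 ± 0.16), Crot, which hands medium-chain acyl groups to carnitine (-1.20 ± 0.10), and Ehhadh, of peroxisomal oxidation (-0.82 ± 0.09). As with Acot1, the largest strain difference of Cyp4a14 and Crot was in 129S1/SvImJ, at -3.11 and -2.31. In C3H/HeJ the same genes stood at -0.59 and -0.32, neither called. Of 12 genes of fatty acid synthesis 10 were called higher and 0 lower (limma), with a median of 1.32. Acacb, Fasn and Acly, which build malonyl-CoA, fatty acids and acetyl-CoA for them, stood at 2.52 ± 0.23, 2.06 ± 0.24 and 1.80 ± 0.14. These lists were chosen with results of the data known and are side by side with the members as a description.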

How the data were processed

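Total liver RNA was extracted with Trizol and labelled as biotin cRNA, per the labels' protocols. The deposited values were signal intensity per probe set from MAS5, per the submitters' processing notes, with no version or settings given in the sources used here. The 2%-trimmed mean of each array was 500 to 500.2 in these intensity values. Of 45101 probe sets, 64 controls were set aside, and 34958 had 1 gene symbol in the platform annotation, 932 several and 9211 none.

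Signals were taken as log2 with no further scaling. Probe sets at or above the array median in at least 8 of 96 arrays were kept (32999). A model with a mean for each of 12 groups was fitted with limma 3.58.1 in R 4.3.3 (eBayes with trend and robust), with 84 residual degrees of freedom and Benjamini-Hochberg adjustment over all kept probe sets. Contrasts were the diet difference averaged over strains and in each strain, the interaction, strain F tests and 15 pairs on each diet, and B6C3F1/J minus the parental mean. The fit was tested on simulated data. Each gene was represented by the kept probe set whose mean was highest. Named genes were all members, the 10 closest to Acot1 and 3 closest to each other member by group means, the 3 largest averaged differences of each list, and all other thioesterases. The strain values of Acot6, Cyp4a14 and Crot were chosen after they were seen. The members and lists were chosen with earlier results of these data known. Replicate numbers did not pair the samples: over 528 same-number pairs of arrays the median correlation of deviations from group means was 0.003, and 4.55% were over 0.1. Figures were drawn with matplotlib 3.10.9 in Python 3.11.15. The number of arrays limits the precision. No scan date or other batch was given in the sources used here.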

Additional observations from a re-analysis of the deposited data

Results flagged for a closer look

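In each group of 8 mice the highest or lowest value was marked when its gap to the nearest mouse, over the range of the group, was above Dixon's critical value for 8 samples. This marked 24 of 168 groups of the 14 tested member probe sets, where chance marks about 1 in 20. Of these, 14 lay on 3 arrays.

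B6C3F1/J control replicate 2, the array with the highest median, was the lowest of its group for 6 probe sets. Its log2 signals were 11.16 for Acot3, 9.37 for Acot7, 9.79 for Acot8, 10.1 and 11.65 for Acot12 (1419395_at and 1449457_at) and 10.54 for Acot13. DBA/2J restricted replicate 6, the other array of high median, was the lowest of its group at 6.15 for Acot4 (1422076_at), 8.79 for Acot8, 10.58 for Acot12 (1449457_at) and 11.63 for Acot13. C57BL6/J restricted replicate 2 was the lowest at 4.53 and 6.29 for Acot11 (1425667_at and 1429267_at) and 11.02 for Acot12 (1419395_at), and the highest at 13.37 for Acot13.

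Among the remaining values, 129S1/SvImJ control replicate 8 was lowest for Acot2 (1439478_at, 10.24) and Acot7 (8.34). C57BL6/J control replicate 1 was highest for Acot11 (1429267_at, 8.07) and lowest for Acot13 (11.73). Lowest values were also marked for Acot11 in 129S1/SvImJ restricted replicate 2 (1425667_at, 6.3), for Acot2 in DBA/2J restricted replicate 1 (1439478_at, 8.34), for Acot4 in CBA/J restricted replicate 3 (1422077_at, 4.55) and for Acot9 in B6C3F1/J control replicate 7 (6.77). Highest values were marked for Acot12 in B6C3F1/J restricted replicate 8 (1419395_at, 11.68) and for Acot7 in DBA/2J control replicate 1 (10.14).

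The diet difference varied between strains by the limma interaction F test for Acot1 (adjusted p = 0.0138), Acot2 (0.00255 on 1439478_at and 0.0351 on 1422996_at), Acot8 (0.00161) and Acot12 (0.0164 on 1419395_at). By the single-strain differences the restricted mean of Acot1 was lower in 6 of 6 strains, that of Acot8 in 6 of 6 and that of Acot2 (1439478_at) in 5 of 6.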

How the results depend on the processing

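As reported, the 14 member probe sets gave 8 calls in the averaged diet difference, 16 in single strains, 5 in the interaction, 12 in the strain test on each diet and 3 for B6C3F1/J against its parents. With 1 probe set a gene the interaction gave 3 and B6C3F1/J 1, with 10 values tested, and with the probe sets of each gene averaged the interaction gave 3. Without CBA/J the interaction gave 1 and the single strains 10. Array weights gave 25 in single strains and 7 for B6C3F1/J. B6C3F1/J also gave 7 when only the groups in the contrast were fitted, 8 without the 2 arrays of high median and 7 with a covariate for the array median. A minimum of 1.5-fold left 2 averaged calls. The cause of these shifts was not tested beyond the fewer probe sets or strains that some settings hold. Shares of all probe sets called under the other settings are not given here, so nothing about the members is read from the shifts. Other settings, which were quantile normalization, centring on the 75th percentile, an offset before log2, 2 other filters and another variance model, kept each of these counts within 1.5 times of that reported. Leaving out 1 array gave 8 to 10 averaged calls, 15 to 18 in single strains, 4 to 6 in the interaction, 10 to 13 on the control diet, 12 to 14 on the restricted diet and 2 to 5 for B6C3F1/J, the 5 being without B6C3F1/J control replicate 2. Replicate numbers of the labels did not pair the samples, since 16 of 96 arrays were closest to their own number. With the replicate block the counts were 8, 16, 5, 12, 12 and 3, as without it. Of the values of single members under these settings, 2527 kept their side of the threshold or, for the diet differences, moved by less than the spread between mice. Part of that count was fixed in advance. The 2 other filters, the other variance model, the fold minimum and the replicate block leave the diet differences themselves unchanged. So do 1 probe set a gene and a fit of only the groups in the contrast. Outside the diet differences a call was lost by 29 values and gained by 37. Calls lost or gained by averaged and single-strain diet differences are not in these counts. Of those diet differences 6 moved by more than that spread, and no called difference changed sign. The median averaged diet difference over all probe sets was 0.05 as reported. It was -0.01 after quantile normalization and 0.04 after centring on the 75th percentile. Signals below the array median, as in most Acot11 groups, leave the size of a difference uncertain.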
